A study of Mus musculus with 12 samples.

Results

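Nuclear-coded oxidative phosphorylation genes were examined in the livers of mice after vertical sleeve gastrectomy (VSG), an operation that removes most of the stomach. They were chosen by symbol: genes starting with Ndufa, Ndufb, Ndufc, Ndufs or Ndufv (complex I), Sdha to Sdhd (complex II), Uqcr (complex III), Cox4 to Cox8 (complex IV) and Atp5 (complex V). This gave 91 of the 17107 genes with an FPKM above 0 in at least 1 mouse, where FPKM is the number of sequenced fragments scaled for transcript length and library depth. A further 3 genes of the same names (Cox7b2, Cox8c and Ndufa4l2) were listed at 0 in all 6 mice and left out. By complex, the 91 genes were 36 of complex I, 4 of complex II, 8 of complex III, 17 of complex IV with Ndufa4, and 17 of complex V. The names also took in 8 complex I assembly factors (Ndufaf1 to Ndufaf8) and 1 pseudogene, Ndufs5-ps.

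Oxidative phosphorylation takes electrons from NADH and succinate along the inner mitochondrial membrane to oxygen and uses the proton gradient so formed to make ATP. Complex I oxidizes NADH, complex II is the succinate dehydrogenase of the citric acid cycle, complex III passes electrons from ubiquinol to cytochrome c, complex IV hands them to oxygen, and complex V is the ATP synthase. A few core subunits are coded by mitochondrial DNA, which was not analysed here, and the others by nuclear genes. The liver depends on this system for fatty acid oxidation, gluconeogenesis and urea synthesis.

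RNA-seq was performed on the livers of 2 mice in each of 3 groups, and FAIRE-seq, which maps accessible chromatin, on the same livers. All animals were C57BL/6J wild-type males. Control mice ate normal chow for 28 weeks and had no surgery. Sham and VSG mice shared a 60 kcal% saturated fat diet (HFD) from the age of 8 weeks, for 14 weeks before and 14 weeks after the operation, and a liquid diet on the first 4 days after it. VSG mice had about 80% of the stomach resected, and in Sham mice the isolated stomach was only pressed with forceps. Control therefore differed from Sham in both diet and surgery, and their effects cannot be told apart.

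An exact permutation test of 2 against 2 mice goes no lower than p = 0.333, so tests were taken from a limma fit on the log2(FPKM + 1) scale over the 9751 genes that reached an FPKM of 1 in 2 or more mice. Differences below are on this scale, which understates the change of low genes. The p-values rest on the spread between these pairs of mice. Counts were not analysed here, so sequencing depth was estimated from the steps between low values. It was 0.678 to 1.56 times that of Control mouse 1 in the other mice, with Sham mouse 1 the shallowest. Of the hepatocyte markers 7 were in the table, all above 0 in every mouse except Apob, listed at 0 in Sham mouse 1, and their summed FPKM ran from 9103 (Sham mouse 2) to 18300 (Control mouse 1). In bulk tissue, fewer hepatocytes and less RNA per hepatocyte cannot be told apart.

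These genes were among the most abundant messages of the liver. Of the 91 genes, 86 passed the filter on low values, and 72 of these lay in the top 10% of all tested genes by mean FPKM, which began at 60.03. The median of their mean FPKM was 144.3, against 5.92 for all tested genes. The median was highest in complex V (341.4), followed by complex III (316.5), complex IV (272.8), complex II (125.6), complex I (100.5) and the complex I assembly factors (8.25). Of the 86, 84 were above 0 in every mouse, whereas 15.8% of all tested genes were listed at 0 in at least 1 mouse. The order of the genes by FPKM was close to the same in every mouse, with a Spearman correlation over the 86 genes between 0.943 and 0.991 for the 15 pairs of mice.

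The leading gene of the set was Atp5k, a small membrane subunit of the ATP synthase, with a mean FPKM of 826.6. The highest genes of other complexes were Ndufa4, a complex IV subunit in spite of its name, at 699.5, Uqcrq, a small subunit of complex III, at 568.2, and Ndufa3, an accessory subunit of complex I, at 365.9. Complex II was even, from 116.8 for the flavoprotein Sdha to 137.6 for the membrane anchor Sdhc. At the other end, the lowest tested gene was Ndufaf5, a complex I assembly factor, at 1.01, and Ndufaf8 was the highest assembly factor at 30.01. The lowest subunit genes of their complexes were Uqcrc2 (111.7) in complex III and Atp5a1 (73.0) in complex V, both core proteins.

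Isoforms typical of other tissues were at or near 0. Cox4i2, Cox6a2, Cox6b2 and Cox8b gave 0 to 0.314% of the summed FPKM with their general partners Cox4i1, Cox6a1, Cox6b1 and Cox8a, and none of the 4 passed the filter. The heart and muscle isoform Cox7a1 gave 1.59% to 3.27% of its sum with Cox7a2. Summed skeletal muscle markers (5 in the table, with Tnnt3, Tnnc2, Mylpf and Actn3 at 0 in at least 1 mouse) stayed between 0.569 and 2.74 FPKM. Among the 3 genes for the c ring of the ATP synthase, which code for the same mature protein, Atp5g3 held 52.7% to 65.2%, Atp5g2 18.2% to 28.9% and Atp5g1 16.4% to 18.4%. Atp5g3 was lowest as a share in Sham mouse 2, where Atp5g2 was highest.

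The promoters of these genes were accessible in all 3 groups. Of the 90 genes with a start site in the mouse mm9 build, 85 (94.4%) had a FAIRE peak within 1000 bp of a start in the Control list, and the same 85 had one in the Sham and in the VSG list. The share among all tested genes was 89.1%, 88.8% and 90.1% in Control, Sham and VSG. The 5 genes without a peak were the 4 isoforms named above and Cox7b, a complex IV subunit with an FPKM of 58.9 to 158.4. The authors kept peaks found reproducibly in both mice of a group, in 1 list per group, so no error can be set on a peak. Sdhb, the iron-sulfur subunit of complex II, had one of the strongest, at the 99.4, 99.1 and 99.8 percentile of signal in Control, Sham and VSG (chr4:140516893-140518078 in the Control list, mm9, over the gene start). Ndufa10 stood at the 90.9, 92.0 and 93.1, Atp5b at the 89.4, 97.7 and 89.4, and Sdha at the 88.4, 84.2 and 90.3 percentile. Ranked by signal within its own list, the median promoter peak of these genes stood at the 92.0, 92.0 and 92.4 percentile in Control, Sham and VSG, against 86.2, 85.8 and 87.8 for all tested genes with a peak.

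A few promoters are shown to let the sequence be read beside the values: those of the subunit genes with the smallest p in the Sham to Control comparison (Ndufa10, Atp5b, Sdha and Sdhb), of Cox6a1, which holds NRF1 and ETS matches together, and of Ndufs7, which holds a YY1 match. Each runs 5′ to 3′ from 250 bases before to 50 bases after the RefSeq start in build GRCm38.p6, and capitals mark motif matches on either strand.
Sdha promoter (chr13:74350191-74350490, - strand): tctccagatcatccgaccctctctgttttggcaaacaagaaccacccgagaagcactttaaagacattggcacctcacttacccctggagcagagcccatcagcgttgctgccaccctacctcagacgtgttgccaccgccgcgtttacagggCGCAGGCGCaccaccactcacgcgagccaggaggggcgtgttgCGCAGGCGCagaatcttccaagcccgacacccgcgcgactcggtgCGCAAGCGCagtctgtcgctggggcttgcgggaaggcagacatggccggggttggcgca
Sdhb promoter (chr4:140961021-140961320, + strand): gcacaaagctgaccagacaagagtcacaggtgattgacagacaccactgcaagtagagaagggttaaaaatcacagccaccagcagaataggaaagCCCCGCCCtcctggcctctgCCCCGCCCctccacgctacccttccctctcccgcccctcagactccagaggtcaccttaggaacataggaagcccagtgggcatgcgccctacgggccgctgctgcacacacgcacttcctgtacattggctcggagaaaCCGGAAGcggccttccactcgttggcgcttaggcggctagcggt
Ndufa10 promoter (chr1:92473709-92474008, - strand): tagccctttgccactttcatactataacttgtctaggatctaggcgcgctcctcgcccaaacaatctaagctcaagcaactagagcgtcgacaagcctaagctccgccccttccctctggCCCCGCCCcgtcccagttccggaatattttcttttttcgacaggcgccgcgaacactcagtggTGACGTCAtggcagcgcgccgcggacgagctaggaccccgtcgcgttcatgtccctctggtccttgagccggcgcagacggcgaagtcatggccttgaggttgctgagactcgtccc
Atp5b promoter (chr10:128083057-128083356, + strand): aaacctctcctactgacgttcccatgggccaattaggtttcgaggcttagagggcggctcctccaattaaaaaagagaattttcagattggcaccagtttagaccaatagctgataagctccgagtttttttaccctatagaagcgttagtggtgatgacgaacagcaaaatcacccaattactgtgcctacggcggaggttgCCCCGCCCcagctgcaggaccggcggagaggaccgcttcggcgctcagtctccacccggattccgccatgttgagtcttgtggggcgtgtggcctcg
Cox6a1 promoter (chr5:115348909-115349208, - strand): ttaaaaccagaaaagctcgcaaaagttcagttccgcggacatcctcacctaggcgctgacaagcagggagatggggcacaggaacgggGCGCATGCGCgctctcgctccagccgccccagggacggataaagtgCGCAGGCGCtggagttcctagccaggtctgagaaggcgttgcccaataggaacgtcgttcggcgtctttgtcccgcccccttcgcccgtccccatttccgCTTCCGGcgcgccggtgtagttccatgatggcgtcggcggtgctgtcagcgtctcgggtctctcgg
Ndufs7 promoter (chr10:80249199-80249498, + strand): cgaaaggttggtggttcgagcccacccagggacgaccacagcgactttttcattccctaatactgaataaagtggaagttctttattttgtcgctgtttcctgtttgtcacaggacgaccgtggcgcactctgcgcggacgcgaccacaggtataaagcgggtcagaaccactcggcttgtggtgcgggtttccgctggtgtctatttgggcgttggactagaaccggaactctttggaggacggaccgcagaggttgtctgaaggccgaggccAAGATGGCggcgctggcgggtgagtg
In Sdha the capitals are 3 matches to the NRF1 motif (GCGCNTGCG or its reverse complement). Cox6a1 holds 2 overlapping NRF1 matches, 1 further NRF1 match and 1 ETS match (CCGGAAG, the core bound by GABP). Sdhb holds 2 SP1 matches (GGGCGGGG) and 1 ETS match, Ndufa10 holds 1 SP1 and 1 CRE match (TGACGTCA), and Atp5b holds 1 SP1 match. The match in Ndufs7 is to the YY1 motif (AAGATGGC), which holds the letters ATG.

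NRF1 and GABP are known as activators of respiratory chain genes, and the NRF1 motif was more frequent in these windows than in those of other sets. Of the 75 genes with a promoter in the RefSeq table, 34.7% held the NRF1 motif, against 16.3% of 7790 tested genes and 7.12% of all 27025 genes with a promoter. The ETS motif of GABP was in 25.3%, 21.8% and 9.93% of the same sets, near the share of tested genes, and the YY1 motif in 14.7%, 5.76% and 3.19%. The inner part of the window leaves out its last bases, downstream of the start, where most YY1 matches of these genes ended. In that part the YY1 shares were 4%, 2.76% and 1.46%, and the NRF1 shares 28%, 12.6% and 5.41%. The lower YY1 shares there therefore do not show a lack of YY1 matches near the start. The motif of the ERR receptors (TCAAGGTCA) was found in 2 genes only, Atp5g3 and Sdhd, which is 2.67%, against 0.347% and 0.466%. The CRE motif was in 5.33%, 3.59% and 2.03%. The SP1 motif went the other way, at 20.0% of these genes and 36.9% of tested genes (19.6% of all). The median GC content was 58.5% in these promoters, 60.3% in tested genes and 52.7% in all. A match is a run of letters and not a measured site.

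**Figure D1:**
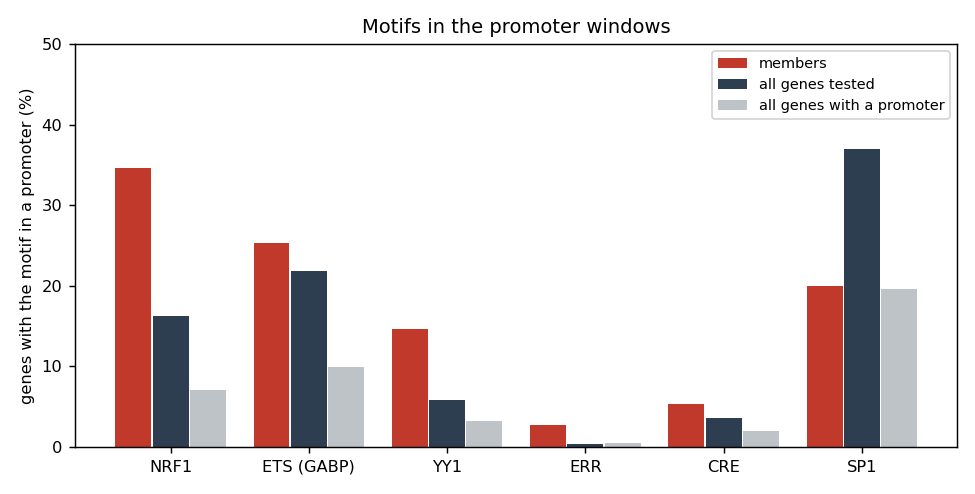
Share of genes (%, vertical axis) with each of 6 motifs in a window of 250 bases before to 50 after the start, for the 75 oxidative phosphorylation genes (red), 7790 tested genes (dark) and 27025 genes with a promoter (grey). NRF1, at 34.7% against 16.3% of tested genes, and YY1, at 14.7% against 5.76%, stand above tested genes in this window, while SP1, at 20.0%, stands below the 36.9% of tested genes. YY1 is at 4% against 2.76% in the inner part, which leaves out the last bases, where most YY1 matches of the 75 genes ended.

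Genes with and without an NRF1 match had close medians in these livers: the median Sham to Control difference was -0.21 for the 26 tested genes with a match and -0.23 for the 46 without, and the VSG to Control difference was 0.14 and 0.15.

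The widest spread between mice lay within the Sham group. The summed FPKM of the 91 genes was 19271 and 16516 in Control mice 1 and 2, 21912 and 10495 in Sham mice 1 and 2, and 20537 and 18182 in VSG mice 1 and 2. The Sham pair therefore held both the highest and the lowest liver of the study. Sham mouse 2 was the lowest of 6 mice for 73 of the 86 tested genes (84.9%), against 20.5% of all tested genes. Sham mouse 1 was the highest for 49 of 86 (57%), against 21% of all tested genes.

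Within the Sham group, 84 of the 86 genes were lower in mouse 2 than in mouse 1 (97.7%, against 52.9% of all tested genes). The median difference was -0.99, a fold of 0.503. A level at least 2-fold lower in mouse 2 was seen in 40 of 86 genes (46.5%), against 10.1% of all tested genes, and a gap of 2-fold in either direction in the same 40, against 21.5%. The median gap between mouse 2 and mouse 1 was -0.22 in the Control pair and -0.11 in the VSG pair. As a coefficient of variation, the median over the 84 genes above 0 in every mouse was 11.4% in Control, 47.6% in Sham and 10.5% in VSG. All tested genes above 0 in every mouse had medians of 11.5%, 24.8% and 18.1%. Since all 6 mice share 1 fit, the Sham spread enters the standard error of all 3 comparisons.

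**Figure D2:**
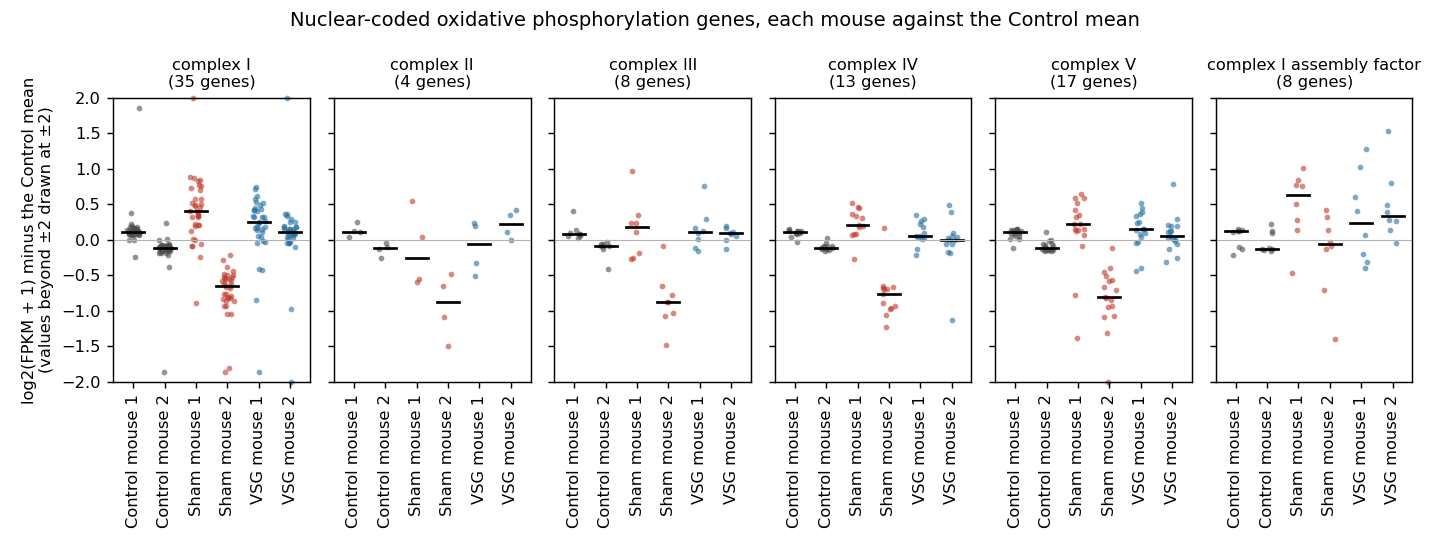
Each point is 1 gene in 1 mouse, as log2(FPKM + 1) minus the mean of the 2 Control mice, by complex, for the tested genes other than the pseudogene; bars are medians, and points beyond ±2 are drawn at ±2. In each of complexes I to V the Sham mouse 2 bar is the lowest, while Sham mouse 1 lies above the Control mean in complexes I, III, IV and V.

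The gap between the Sham mice ran through every complex. The median gap was -1.04 in complex I (34 of 35 genes lower in mouse 2), -0.72 in complex II (4 of 4), -1.04 in complex III (8 of 8), -1.13 in complex IV (13 of 13) and -0.99 in complex V (16 of 17). The exceptions were Ndufa10 and Atp5a1. For the assembly factors the gap was -0.76 (8 of 8), with none as much as 2-fold apart. The largest gap in complex V was in Atp5pb, the peripheral stalk subunit b. Its FPKM was 22.5 in Sham mouse 2, and 157.4 to 198.5 in the other 5 mice.

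Other gene groups also differed between the Sham mice. The median gap was -0.72 over 77 genes of the mitochondrial ribosome (68 lower in mouse 2), -0.42 over 81 genes of the cytosolic ribosome (72 lower), -0.54 over 13 citric acid cycle genes (12 lower) and -0.55 over 17 electron carrier genes (14 lower). Among markers of other cells, red blood cell genes summed to 381.8 FPKM in Sham mouse 1 and 154.4 in Sham mouse 2 (all 4 lower), cholangiocyte genes to 185.6 and 62.9 (1 of 2 tested lower), and fat genes to 22.6 and 5.55 (both tested genes lower, with Adipoq, Plin1, Ucp1 and Retn at 0 in at least 1 mouse). Hepatocyte markers summed to 14450 and 9103, with 4 of 7 lower. Markers of Kupffer cells and macrophages summed to 103.3 and 98.7, neutrophil markers to 42.3 and 46.5 (Ngp, Ltf and Camp at 0 in at least 1 mouse), stellate cell markers to 9.38 and 10.5, and endothelial markers to 8.71 and 6.40 (Stab2, Kdr and Pecam1 at 0 in at least 1 mouse). In Sham mouse 2, 3 of 8 Kupffer cell, 0 of 3 neutrophil, 3 of 6 stellate cell and 3 of 5 endothelial markers tested were the lower ones. Their part in the gap was not tested.

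Transcript length moved with the gap as well. These genes are short, with a median spliced length of 732 bases against 2287 for all tested genes with a length. Among genes outside the set, the median gap between the Sham mice was -0.48 for the 580 under 750 bases, -0.29 for the 1957 between 750 and 1500 bases and 0.04 for the 6714 of 1500 bases and over. In the oxidative phosphorylation genes the same bins gave -1.07 (44 genes), -0.94 (27 genes) and -0.71 (14 genes). Other genes with a mean FPKM of at least 50 gave -0.80, -0.61 and -0.35. In each bin the gap was thus larger in the set than in other genes, also abundant ones.

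The 2 Sham mice differed in where this length pattern sat. Against the Control mean, Sham mouse 1 had medians of 0.35, 0.32 and -0.10 in the 3 bins of the set, and 0.48, 0.35 and -0.01 in other genes. Sham mouse 2 had medians of -0.69, -0.65 and -0.83 in the set, and -0.01, 0.02 and 0.03 in other genes. In other abundant genes the values for Sham mouse 2 were -0.18, -0.16 and -0.22. Sham mouse 2 was thus low in the set at every length, whereas Sham mouse 1 was high in short genes both in and outside the set. VSG mouse 1 had the pattern as well. Its medians against the Control mean were 0.23, 0.11 and -0.14 in the set, and 0.35, 0.30 and 0.04 in other genes. VSG mouse 2 had 0.06, 0.12 and 0.17 in the set, and 0.23, 0.21 and 0.14 in other genes. The part of RNA quality or library preparation was not tested.

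**Figure D3:**
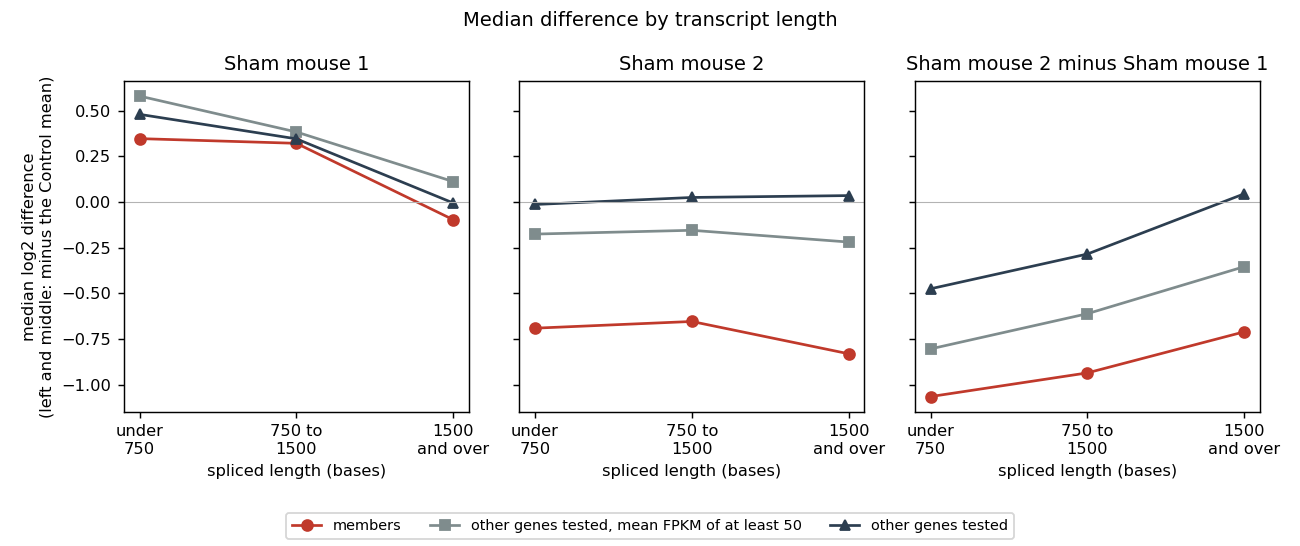
Median log2(FPKM + 1) difference (vertical axis) by spliced length (horizontal axis, bases) for the oxidative phosphorylation genes (red), other tested genes with a mean FPKM of at least 50 (grey) and all other tested genes (dark). In Sham mouse 2 the red line runs from -0.69 to -0.83, under both other lines at every length, while in Sham mouse 1 all 3 lines drop with length.

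The comparison of Sham with Control asks what the diet and the sham operation did. No oxidative phosphorylation gene passed an FDR of 10% (limma, smallest adjusted p = 0.397), against 30 of 9751 genes tested (0.308%). The median difference was -0.22, and 0.03 over all tested genes. Of the 86 genes, 63 lay below 0 and 23 above, whereas 52.6% of all tested genes lay above 0. At an unadjusted p under 0.05, 5 genes were lower (5.81%), namely Ndufa10, Atp5b, Sdha, Sdhb and Ndufaf6, and 0 were higher. The background was 4.4% lower and 6.57% higher, so that the share of lower genes was near that of all genes. Both Sham mice lay under both Control mice for 13 genes (15.1%, background 20.6%) and above them for 4 (4.65%, background 25.4%).

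Markers of hepatocytes and of other cells were read beside the set. The 7 hepatocyte markers had a median difference of -1.63 in Sham against Control, 0.98 in VSG against Sham and -0.29 in VSG against Control, with summed FPKM of 18300 and 14920 in Control, 14450 and 9103 in Sham, and 16290 and 11940 in VSG mice, most of it Apoa1. Of the 7, Tat, the tyrosine aminotransferase, fell in both high-fat groups: its FPKM was 1376 and 1477 in Control, 210.2 and 187.6 in Sham, and 232.6 and 282.6 in VSG mice (-2.84 ± 0.24 in Sham, limma adjusted p = 0.0435; -2.47 ± 0.24 in VSG, limma adjusted p = 0.0661). The 5 tested markers of sinusoidal endothelium had medians of -1.18, 0.91 and 0.18 in the same order of comparisons, and sums of 41.0 and 18.7 in Control, 8.71 and 6.40 in Sham, and 29.8 and 29.7 in VSG mice. Kupffer cell and macrophage markers had medians of 1.03, 0.47 and 1.89, and neutrophil markers of 2.05, -1.02 and 1.02. Their part in the differences of the respiratory chain genes was not tested.

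The 13 genes with both Sham mice under both Control mice (15.1%, against 20.6% of all tested genes) included catalytic subunits. Atp5b, the catalytic beta subunit of the ATP synthase, had an FPKM of 598 and 591 in Control, 348 and 330.0 in Sham, and 438 and 648 in VSG mice. Both Sham mice were lowest and did not overlap with either group. The difference from Control was -0.81 ± 0.28 (SE, limma adjusted p = 0.417). Atp5a1, the alpha subunit that builds the same catalytic head, had 83.9 and 77.5 in Control, 30.4 and 45.7 in Sham, and 60.8 and 139.8 in VSG mice, with Sham mouse 1 the lowest this time. Its difference from Control was -1.09 ± 0.46 (limma adjusted p = 0.474).

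In complex II the iron-sulfur and flavoprotein subunits, which carry out the oxidation of succinate, lay under both Control mice in both Sham mice. So did 20.6% of all tested genes. In the membrane anchors the Sham and Control values overlapped. Sdha had an FPKM of 143.2 and 136.0 in Control, 94.6 and 65.2 in Sham, and 111.5 and 150.3 in VSG mice. Sdhb had 174.9 and 151.2 in Control, 107.4 and 56.9 in Sham, and 114.2 and 162.1 in VSG mice. Neither gene overlapped between Sham and the other groups, with differences from Control of -0.82 ± 0.29 (limma adjusted p = 0.417) for Sdha and -1.05 ± 0.38 (limma adjusted p = 0.431) for Sdhb. Sdhc, in contrast, had 184.5 in Sham mouse 1 and 79.6 in Sham mouse 2, on either side of its Control values of 137.5 and 115.2. Sdhd likewise had 121.8 and 84.5 in Sham, overlapping the Control values of 140.4 and 99.1.

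Ndufa10, an accessory subunit of complex I, had the smallest p of the set in this comparison. Its FPKM was 100.6 and 86.3 in Control, 49.8 and 52.5 in Sham, and 69.6 and 104.3 in VSG mice. With Atp5a1 it was the exception to the lower level in Sham mouse 2. Its difference from Control was -0.85 ± 0.27 (limma adjusted p = 0.397). The core proteins of complex III were also low in both Sham mice: Uqcrc1 was at 136.7 and 120.9 in Control, 112.5 and 62.2 in Sham, and 114.8 and 138.6 in VSG mice, and Uqcrc2 at 132.6 and 123.3, 106.6 and 45.3, and 118.2 and 144.1. Their differences from Control were -0.61 ± 0.34 and -0.87 ± 0.44. Ndufaf6, an assembly factor of low level, was at 8.47 and 9.95 in Control, 6.35 and 2.87 in Sham, and 7.88 and 8.90 in VSG mice.

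Of the 14 tested genes of 1500 bases and over, 6 (Ndufa10, Sdha, Uqcrc1, Uqcrc2, Atp5a1 and Atp5b) lay under Control in both Sham mice, which is 42.9%, and of the 71 shorter genes 6 did, which is 8.45%. Other tested genes showed a split in the same direction, at 23.5% of 6714 long and 13.7% of 2537 shorter genes. Among other genes with a mean FPKM of at least 50 the shares were 27.3% and 12%.

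Most short genes had the Sham mice on both sides of Control instead. Sham mouse 1 lay above and Sham mouse 2 below both Control mice for 51 of the 71 genes under 1500 bases (71.8%), and for 2 of the 14 longer ones (14.3%). Other tested genes did so in 20.6% and 9.1%, and those with a mean FPKM of at least 50 in 35.6% and 20.9%. Cox6a1, Cox8a and Ndufa3, chosen after their values were seen, are examples. Cox6a1, a complex IV subunit, had an FPKM of 610 and 523 in Control, 781 and 350.1 in Sham, and 723 and 565 in VSG mice. Cox8a was at 467.6 and 396.3 in Control, 615 and 272 in Sham, and 520.1 and 447.8 in VSG mice. Ndufa3 was at 335 and 274 in Control, 538 and 202 in Sham, and 510.4 and 337 in VSG mice. In all 3 genes Sham mouse 1 was the highest and Sham mouse 2 the lowest mouse, so that the Sham error is wide: the Sham to Control differences were -0.11 ± 0.45, -0.07 ± 0.44 and 0.12 ± 0.54.

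**Figure D4:**
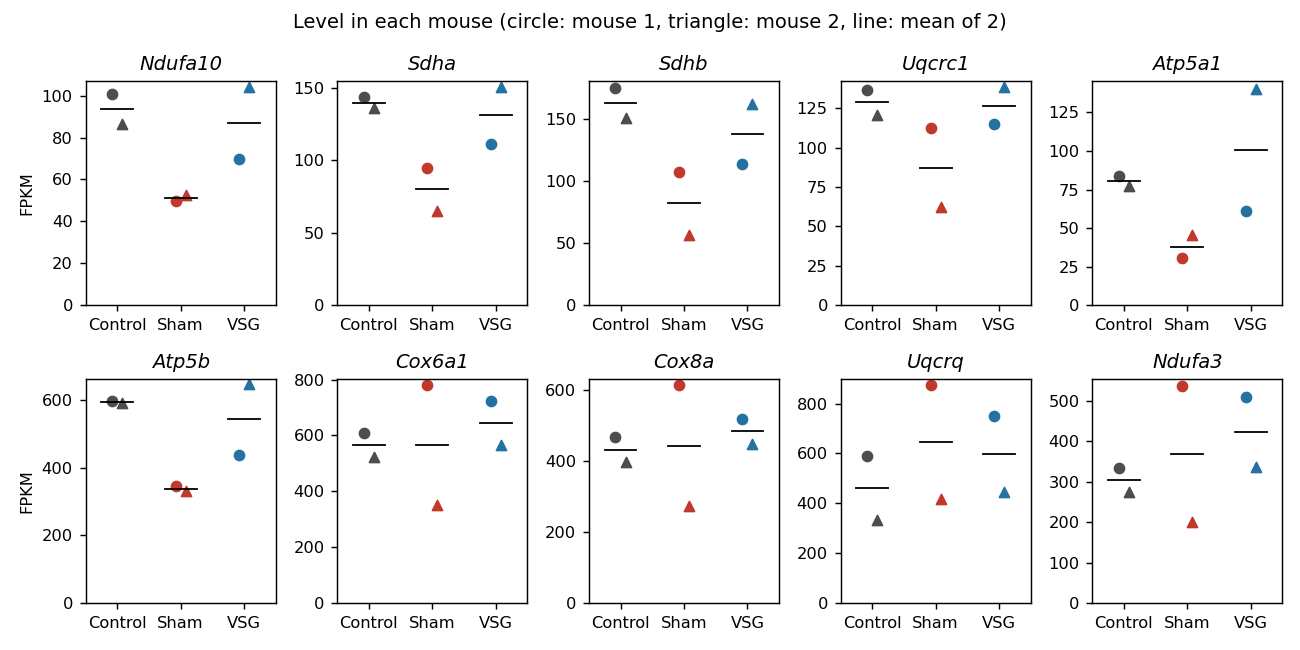
FPKM (vertical axis, from 0) in each mouse for 10 genes, with circles for mouse 1, triangles for mouse 2 and a line at the mean of 2. In Ndufa10, Sdha, Sdhb, Uqcrc1, Atp5a1 and Atp5b both Sham points lie under both Control points, whereas in Cox6a1, Cox8a and Ndufa3 the Sham points enclose the Control and VSG points.

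Core subunits of complex I did not separate Sham from Control. Ndufs3, Ndufs7 and Ndufs8 had 142.8, 125.7 and 104.1 FPKM in Sham mouse 1 and 74.2, 57.0 and 50.0 in Sham mouse 2, with Control values of 130.5 and 130.8, 104.7 and 94.7, and 78.4 and 69.4. Ndufv1, which binds NADH, was at 52.7 and 74.4 in Control, 60.0 and 44.1 in Sham, and 64.4 and 80.7 in VSG mice. Ndufv2 was at 58.8 and 52.7, 69.9 and 34.3, and 63.8 and 60.0. In each of these 5 genes the Sham and Control values overlapped. Further complex I genes have values that cannot be read as levels. The core gene Ndufs1 was listed at 0 in Control mouse 2, Sham mouse 2 and VSG mouse 1. It was at 12.2, 26.1 and 45.9 in the other mice. Ndufab1, the mitochondrial acyl carrier protein and not a core gene, was listed at 0 in every mouse but Sham mouse 1 (70.3). A 0 in such a file can be a failed estimate.

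A further 7 subunits of complexes III, IV and V are given here. In complex IV, Cox5a stood at 306.5 and 153.0 in Sham against 310.9 and 273.4 in Control, and Cox5b at 382.3 and 162.6 against 332.6 and 272.4. In complex III, the Rieske iron-sulfur protein Uqcrfs1 stood at 152.6 and 89.6 against 145.7 and 135.7. In the ATP synthase, the central stalk subunits Atp5c1, Atp5d and Atp5e stood at 198.4 and 98.9, 233.0 and 153.9, and 738 and 346.8 in Sham, against 212.0 and 209.9, 225.9 and 198.2, and 536 and 450.6 in Control, and the stalk subunit Atp5o at 218.6 and 113.3 against 211.8 and 190.0. Of these 7 genes only Atp5c1 had both Sham mice under both Control mice. Apart from the subunits already named, such as Ndufa10, 3 accessory subunits did so. Cox6c of complex IV was at 399 and 248.4 in Sham against 518 and 449 in Control. Uqcr11 of complex III was at 303 and 199 against 373 and 359.5, and Ndufb5 of complex I at 72.5 and 43.2 against 81.5 and 73.2. The share of all tested genes with both Sham mice under both Control mice was 20.6%.

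Complex I assembly factors had the highest group median against Control. Their median Sham to Control difference was 0.33 (6 of 8 above 0), against -0.18 in complex I, -0.52 in complex II, -0.34 in complex III, -0.27 in complex IV and -0.30 in complex V. Of the 4 genes above Control in both Sham mice, 3 were assembly factors (Ndufaf3, Ndufaf5 and Ndufaf7). The other was Cox7a2l, which takes part in joining complexes III and IV and was at 98.0 and 94.9 in Sham against 87.0 and 82.3 in Control. Of all tested genes, 25.4% lay above Control in both Sham mice and 33.8% in both VSG mice. Ndufaf7, a methyltransferase that acts on a complex I subunit, had an FPKM of 3.49 and 2.77 in Control, 6.02 and 4.49 in Sham, and 7.41 and 6.19 in VSG mice. Both high-fat groups lay above Control without overlap, with differences of 0.59 ± 0.25 for Sham (limma adjusted p = 0.477) and 0.92 ± 0.25 for VSG (limma adjusted p = 0.400). Ndufaf3 was at 6.29 and 5.20, 12.5 and 7.43, and 15.4 and 7.81, and Ndufaf5 at 0.635 and 0.938, 1.53 and 0.953, and 0.869 and 1.17. These factors are low, and the levels of Ndufaf5 lie near the filter.

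The comparison of VSG with Sham asks what the stomach resection did on the same diet. Again 0 of the 86 genes passed the FDR (limma, smallest adjusted p = 0.542), against 5 of 9751 (0.0513%). The median difference was 0.35, with 80 of 86 genes above 0 (against 59.8% of all tested genes), and 0.08 over all tested genes. By group of genes it was 0.33 in complex I, 0.62 in complex II, 0.45 in complex III, 0.36 in complex IV, 0.32 in complex V and 0.19 in the assembly factors. At an unadjusted p under 0.05, 3 genes were higher (3.49%, background 3.25%) and 0 lower (background 1.61%). Both VSG mice lay above both Sham mice for 20 genes (23.3%, background 18.6%) and below them for 1 (1.16%, background 9.78%).

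Since both of these medians hang on the Sham pair, each was taken with either Sham mouse left out. Without Sham mouse 2 the Sham to Control median turned to 0.31 and the VSG to Sham median to -0.17. Without Sham mouse 1 they were -0.70 and 0.86. The lone Sham mouse is then taken to vary like the other groups. In that setting the differences of Atp5pb were -2.89 and 3.06 in the same 2 comparisons. The direction of the set between Sham and the other groups was therefore decided by which Sham mouse was kept.

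The 3 genes higher in VSG than in Sham at an unadjusted p under 0.05 were Ndufs5-ps, Atp5a1 and Ndufa10. Ndufs5-ps had an FPKM of 40.6 and 40.4 in Control, 32.4 and 21.9 in Sham, and 66.9 and 87.4 in VSG mice. The groups did not overlap, and the difference was 1.49 ± 0.28 against Sham (limma adjusted p = 0.542) and 0.90 ± 0.28 against Control (limma adjusted p = 0.457). Its parent gene Ndufs5, an accessory subunit of complex I, was at 81.6 and 82.5, 94.3 and 55.4, and 135.9 and 101.3, so that VSG mice were also highest. Reads of the pseudogene and of the parent can be shared between near-identical copies, so how the sum is split is uncertain. The pseudogene took 25.6% to 46.3% of the sum of the pair, with the highest share in VSG mouse 2.

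Atp5a1 differed by 1.29 ± 0.46 between VSG and Sham (limma adjusted p = 0.941), with the VSG mice themselves 60.8 and 139.8. Ndufa10 differed by 0.73 ± 0.27, Sdha by 0.71 ± 0.29 and Sdhb by 0.79 ± 0.38 (limma adjusted p = 0.941 for each). In these 4 genes and in Atp5b, VSG mouse 1 lay between the Sham and the Control values and VSG mouse 2 lay above the lower Control value. Of these genes all but Sdhb have 1500 bases or more. Outside the set, the median of VSG mouse 1 against Control was 0.04 at that length and 0.35 under 750 bases. The part of transcript length was not tested. At the lower end, Ndufaf2 was at 30.1 and 14.9 in Sham and 13.0 and 20.0 in VSG mice (-0.38), and Cox4i1, a regulatory subunit of complex IV, at 615 and 306.4 against 512.2 and 225.6 (-0.35). The value of Cox4i1 in VSG mouse 2 came from 1 of its 2 transcripts, the other being listed at 0 there.

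The comparison of VSG with Control shows the end state after surgery on the high-fat diet. Here too 0 genes of the set passed the FDR (limma, smallest adjusted p = 0.400), against 28 of 9751 (0.287%). The median difference was 0.14, with 67 of 86 genes above 0 (against 61.25% of all tested genes), and all tested genes had a median of 0.13. With each mouse scaled to the same median over all genes, the median of the set was 0.02. At an unadjusted p under 0.05, 2 genes were higher (Ndufaf7 and Ndufs5-ps, 2.33%, background 7.04%) and 0 lower (background 2.56%). Both VSG mice lay above both Control mice for 28 genes (32.6%, background 33.8%) and below them for 2, among them Atp5c1 (2.33%, background 14.9%). These shares were near or under those of all genes. By group of genes the median was 0.19 in complex I, 0.09 in each of complexes II, III and IV, 0.13 in complex V and 0.41 in the assembly factors.

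**Figure D5:**
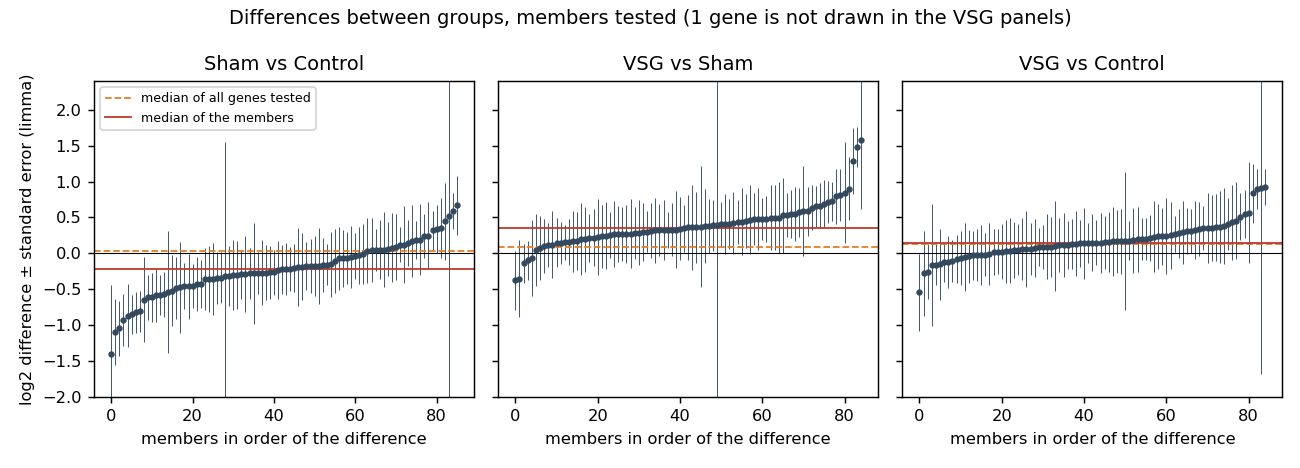
Log2 difference with its standard error (vertical axis) for the tested oxidative phosphorylation genes in order of size, in the 3 comparisons, with 1 gene not drawn in the VSG panels; the red line is the median of the set and the dashed line that of all tested genes. The set lies under all genes in Sham against Control (-0.22 and 0.03), above them in VSG against Sham (0.35 and 0.08) and on them in VSG against Control (0.14 and 0.13).

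Genes that work with the respiratory chain were read in the same fit. Cycs, cytochrome c itself, was at 52.8 and 51.3 in Control, 61.4 and 35.8 in Sham, and 68.5 and 43.4 in VSG mice, and no difference passed. None of the 17 electron carrier genes, the 35 tested assembly factors outside the chosen names, the 13 citric acid cycle genes, the 20 tested regulators or the 81 tested cytosolic ribosome genes passed the FDR in any of the 3 comparisons. Their median differences from Control in Sham and VSG were -0.09 and 0.19, 0.24 and 0.38, -0.34 and 0.36, 0.08 and 0.13, and 0.21 and 0.15. Against Sham, the VSG medians were 0.27, 0.18, 0.48, -0.05 and -0.07 in the same order. The electron carrier and citric acid cycle lists thus had the signs of the respiratory chain genes in all 3 comparisons. The regulator and cytosolic ribosome lists had the opposite sign in both comparisons with Sham. The median gap between the Sham mice was -0.55 and -0.54 in the first 2 of these lists, and -0.43 and -0.42 in the other 2.

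The genes with the smallest p of these lists gave the following levels. Coq10a, a coenzyme Q binding protein, was listed at 0 in both Sham mice, at 3.69 and 1.66 in Control and at 13.6 and 7.12 in VSG mice. Such a 0 can be a failed estimate, so its Sham values cannot be read as levels. Idh3g, a subunit of the NAD-dependent isocitrate dehydrogenase, was at 33.6 and 31.3 in Control, 26.9 and 23.9 in Sham, and 42.4 and 44.5 in VSG mice. The 3 groups of Idh3g did not overlap, and its VSG to Sham difference was 0.76 ± 0.19 (limma adjusted p = 0.825). Coa4, a complex IV assembly factor, was at 4.59 and 3.86 in Control, 10.4 and 7.36 in Sham, and 5.51 and 5.29 in VSG mice, so that Sham was highest. Rplp2, of the cytosolic ribosome, was at 364 and 279 in Control and 573.5 and 445 in Sham.

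Ucp2, a carrier of the inner membrane related to the uncoupling protein of brown fat, rose in Sham. Its FPKM was 10.04 and 8.42 in Control, 42.9 and 50.9 in Sham, and 36.9 and 32.0 in VSG mice. The Sham to Control difference was 2.23 ± 0.22 (limma adjusted p = 0.0691), and the VSG to Control difference was 1.79 ± 0.22 (limma adjusted p = 0.121). It was 1 of 7 tested carriers and pores, whose medians were 0.03, 0.18 and 0.31 in Sham against Control, VSG against Sham and VSG against Control, and the only one to pass. Markers of Kupffer cells and macrophages, which also carry Ucp2, had summed FPKM of 39.5 and 27.6 in Control, 103.3 and 98.7 in Sham, and 82.6 and 263.9 in VSG mice (all 8 listed in every mouse), and their part in the rise was not tested. Mrpl18, of the mitochondrial ribosome, was the only other gene of these mitochondrial and ribosomal lists to pass: it was at 40.2 and 40.9 in Control and listed at 0 in all 4 high-fat mice (limma adjusted p = 0.00488 in both), where such a 0 can be a failed estimate. The median of all 77 mitochondrial ribosome genes was 0.13 in Sham and 0.29 in VSG against Control, and 0.12 in VSG against Sham.

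The regulators of these genes were mostly low in level. Ppargc1a, the coactivator of mitochondrial biogenesis, was at or under 1.84 FPKM in every mouse and listed at 0 in Control mouse 2 and VSG mouse 1. Esrra, the receptor ERR alpha, was at 4.33 and 14.0 in Control, 14.8 and 10.02 in Sham, and 13.6 and 19.4 in VSG mice, with the widest gap between the Control mice. Nrf1 ran from 0.404 to 1.98, and both ends were Control mice. Gabpa was at 9.89 and 11.1 in Control, 7.78 and 8.98 in Sham, and 7.88 and 12.8 in VSG mice. Tfam, which packs and transcribes mitochondrial DNA, was even, at 8.52 to 11.1 across the 6 mice. Twnk, the helicase of mitochondrial DNA, was at 6.80 and 7.84 in Sham and 3.86 and 3.97 in VSG mice, against 5.83 and 4.13 in Control (VSG to Sham -0.76 ± 0.24, limma adjusted p = 0.941).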

How the data were processed

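Livers of 2 Control, 2 Sham and 2 VSG mice were measured by RNA-seq and FAIRE-seq. For the RNA, the authors estimated FPKM values for each RefSeq transcript (the submitters' processing notes name TopHat2, HTSeq and Cufflinks, with mm9 as the build) and deposited them. The labels name poly(A) enrichment and the study's methods rRNA depletion, which was not settled here. FAIRE peaks carry the signal that the authors obtained from F-seq on mm9 with a 250 bp feature length, in 1 deposited list per group. The authors' tables of fold changes and p-values and their 4 lists of changed sites were not used.

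FPKM was summed per gene through RefSeq identifiers of the GRCm38.p6 annotation (34046 of 34933 matched). Genes that reached an FPKM of 1 in 2 or more mice were fitted as log2(FPKM + 1) in R 4.3.3 (limma 3.58.1, variance trend) with all 6 mice in 1 fit, and p-values were adjusted by Benjamini-Hochberg over 9751 genes, at an FDR of 10%. The fit was tested on simulated data. Spliced lengths and start sites came from gencode vM1 (mm9), promoter sequences from RefSeq. Other steps used Python 3.11.15 with pandas 2.3.3, numpy 2.4.6 and matplotlib 3.10.9.

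The genes, the 17 lists and the motifs were chosen with earlier results of these data known. Genes named are the 3 with the smallest p in each direction of each comparison, the highest and lowest of each complex, the catalytic core, isoform pairs, and in each related list fixed regulators and the gene with the smallest p. Ndufaf6, Cox7a2l, Atp5pb, Ndufs5, Cox6c, Uqcr11, Ndufb5 and the single genes behind counts were named after their values were seen, and 1 gene is not reported here by name. Replicate numbers did not pair the mice: deviations of mice with the same number correlated at 0.107, 0.059 and 0.03 over 9751 genes.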

Additional observations from a re-analysis of the deposited data

How the results depend on the processing

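The choices were compared one at a time with alternatives: a pseudocount of 0.1, no filter, the highest transcript alone, mice scaled to 1 median, a block for the replicate number, and each mouse left out. With no mouse left out, 0 oxidative phosphorylation genes passed in any comparison under any of them, and the medians kept their signs: -0.22 in Sham against Control, 0.23 to 0.37 in VSG against Sham and 0.02 to 0.14 in VSG against Control. Without a filter, 62 genes of the whole table passed in Sham against Control, and 5 members had p under 0.05 in VSG against Sham. With a pseudocount of 0.1, 8 passed in VSG against Sham. With each mouse scaled, 1 member had p under 0.05 in VSG against Control. With the replicate block, 9, 0 and 10 genes passed in Sham against Control, VSG against Sham and VSG against Control, and 3 members had p under 0.05 in the first. The block moved no median, and the numbers were not shown to pair the mice. The share of all genes with p under 0.05 is not given for these alternatives. The counts of members at that threshold therefore cannot be set against other genes.

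Leaving out a mouse moved most. The genes that passed ranged from 0 to 158 in Sham against Control, 0 to 51 in VSG against Sham and 0 to 34 in VSG against Control, and the members with p under 0.05 from 0 to 45, 1 to 62 and 0 to 3. The medians ranged from -0.70 to 0.31, -0.17 to 0.86 and 0.04 to 0.25. Of the members, 0 to 1 passed, with Atp5pb the one without Sham mouse 1. In VSG against Sham, Ndufaf2 ranged from -0.86 to 0.11 (without Sham mouse 1) and Cox4i1 from -0.94 to 0.24 (without VSG mouse 2; 0.15 without Sham mouse 1). Against Control, Cox4i1 ranged from -1.13 to 0.046 (without VSG mouse 2). The causes were not tested. With a mouse left out too, the members with p under 0.05 are given without the share of all genes. They cannot be read as a result about the set.

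Promoter peaks were found at 84 or 85 members under every alternative. In the inner part of the window the YY1 motif was found in 4% and the SP1 motif in 9.33% of members (2.76% and 30.6% of tested genes), against 14.7% and 20.0% of members in the whole window. That part leaves out the last bases of the window, where most YY1 matches of the members ended. With 2 mice a group and no counts used, small differences in low genes could not be resolved.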
